A study of Rattus norvegicus with 18 samples.

Results

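The genes described here encode the activating arm of the rod phototransduction cascade, chosen by name as the subunits that carry the light signal to the plasma membrane. There are 8 of them, Gnat1, Gngt1, Gnb1, Pde6a, Pde6b, Pde6g, Cnga1 and Cngb1, among 32285 genes listed in the retina table and 32552 in the RPE/choroid table, and every one was found in both and passed the filter on low counts in all 5 comparisons. Bulk RNA-seq covered 18 libraries from Fischer 344 rats, an inbred strain whose retina degenerates with age. All rats were female, per the methods. Each tissue had 3 libraries from young rats (4 months), 3 from aged rats (24 months, given water only) and 3 from aged rats (24 months) given 8-aminoguanine (8-AG), an endogenous purine, in drinking water at 5 mg/kg per day over the last 8 weeks of life. RPE/choroid is the retinal pigment epithelium with the vascular layer beneath it, collected from the eye cup after the neural retina had been lifted out. The labels do not say whether libraries of a group came from separate rats, so the p-values measure the spread between these libraries. In RPE/choroid, 2 young libraries share a number in their labels and differ in the letter L or R, and so do 2 aged libraries. They may be the left and right eyes of the same rat, which the labels do not state. Those groups may thus hold fewer rats than libraries.

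Rods hold their resting current through a channel that cyclic GMP keeps open. Light leads to the loading of GTP onto transducin, a G protein built from an alpha subunit (Gnat1), a beta subunit (Gnb1) and a gamma subunit (Gngt1). The freed alpha subunit lifts the inhibitory gamma subunits (Pde6g) off the catalytic subunits (Pde6a and Pde6b) of phosphodiesterase 6, the enzyme then breaks down cyclic GMP, and the channel formed by Cnga1 and Cngb1 closes. Of the 8 genes, 7 are known chiefly for their role in rods, and Gnb1 is used by G proteins in many cell types. The homeodomain factor CRX and the leucine zipper factor NRL are known activators of rod genes.

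Because 7 of these genes fell with age and Gngt1 did not, stretches upstream of a few of them are shown with the core letters bound by those factors. The RefSeq table of promoters (rat build GRCr8, 250 bases before to 50 bases after each annotated start) held entries for 6 of the 8 genes, and none was used for Gnat1 or Pde6g. Each is printed 5′ to 3′ along its gene, and capitals mark TAATCC (the CRX core) or TGCTGA (core letters of the NRL site), searched on both strands with no overlap between the matches found. Cngb1 is shown because it fell and holds both motifs, Pde6b because it fell and holds only the NRL letters, and Gngt1 because it did not fall. They lie at chr19:9732396-9732695 (plus strand), chr14:1511386-1511685 (minus strand) and chr4:32960695-32960994 (plus strand).
Cngb1: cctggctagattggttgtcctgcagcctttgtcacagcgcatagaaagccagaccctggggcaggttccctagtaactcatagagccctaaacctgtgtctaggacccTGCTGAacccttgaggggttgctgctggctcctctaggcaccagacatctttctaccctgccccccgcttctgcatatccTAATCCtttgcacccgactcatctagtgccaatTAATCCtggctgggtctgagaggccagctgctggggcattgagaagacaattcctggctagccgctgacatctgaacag
Pde6b: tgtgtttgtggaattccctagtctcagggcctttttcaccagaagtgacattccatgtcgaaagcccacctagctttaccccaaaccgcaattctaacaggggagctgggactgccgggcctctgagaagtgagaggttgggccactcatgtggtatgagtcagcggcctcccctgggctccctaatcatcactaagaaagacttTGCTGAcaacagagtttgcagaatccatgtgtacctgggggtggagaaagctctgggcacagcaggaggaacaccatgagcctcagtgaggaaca
Gngt1: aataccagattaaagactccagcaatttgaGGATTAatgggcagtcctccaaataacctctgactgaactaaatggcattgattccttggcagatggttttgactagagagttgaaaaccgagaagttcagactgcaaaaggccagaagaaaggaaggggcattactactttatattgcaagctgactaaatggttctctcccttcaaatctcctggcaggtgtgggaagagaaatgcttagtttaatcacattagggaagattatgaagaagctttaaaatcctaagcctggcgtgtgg

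TAATCC was present in the windows of 3 of the 6 genes, Cngb1 (2 matches), Pde6a and Gngt1, and in 7.17% of 33469 promoters of the same length. TGCTGA was present in Cngb1, Pde6b and Gnb1, and in 18.4% of all promoters. In Cngb1 the TAATCC matches began 62 and 29 bases before the start and the TGCTGA match 142 bases before it. The Gngt1 match lay farther out, 220 bases before the start and on the opposite strand, and the Cnga1 window held neither motif. Both motif sets thus included genes that fell, and TAATCC also the one that did not. A match is a description of the sequence and not a measured site of binding, and the authors' files use the older build Rnor_6.0.

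The tissue labels were checked against markers. The summed level of 8 RPE marker genes ran from 265 to 571 in the retina libraries and from 5373 to 17899 in RPE/choroid, and all 8 genes had counts in every group. The scales differ, with TMM values in retina and counts scaled to the library total in RPE/choroid. Rlbp1, among these 8, is also in the list of Mueller glia markers used below. Retina libraries held 12283458 to 15644346 counts and RPE/choroid libraries 28573828 to 48203050. All levels given for retina below are the authors' TMM-normalised values, which equal the expected counts multiplied by 1 constant per library. No transcript lengths were used, so levels are compared between groups for the same gene and not between genes.

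Transcripts of 7 of the 8 genes were lower in aged than in young retina. Gnat1 lost more than any other member, Gngt1 did not pass the test, and the catalytic, channel and beta subunits lay between them. The call is an adjusted p under 0.05 in edgeR's quasi-likelihood test over 14588 genes, which found 7.26% of all genes lower and 7.29% higher. The same 7 genes had every aged library below every young one, as did 17.6% of all genes tested. The median log2 fold change of the 8 genes was -0.63 and that of all genes 0.0019. With the rule that the study applied (over 1.5-fold, unadjusted P under 0.05), the genes lower with age included 5 of the 8 (Gnat1, Gnb1, Pde6b, Cnga1 and Cngb1) beside 2.39% of all genes. In whole retina, fewer rods and less RNA per rod cannot be told apart.

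**Figure D1:**
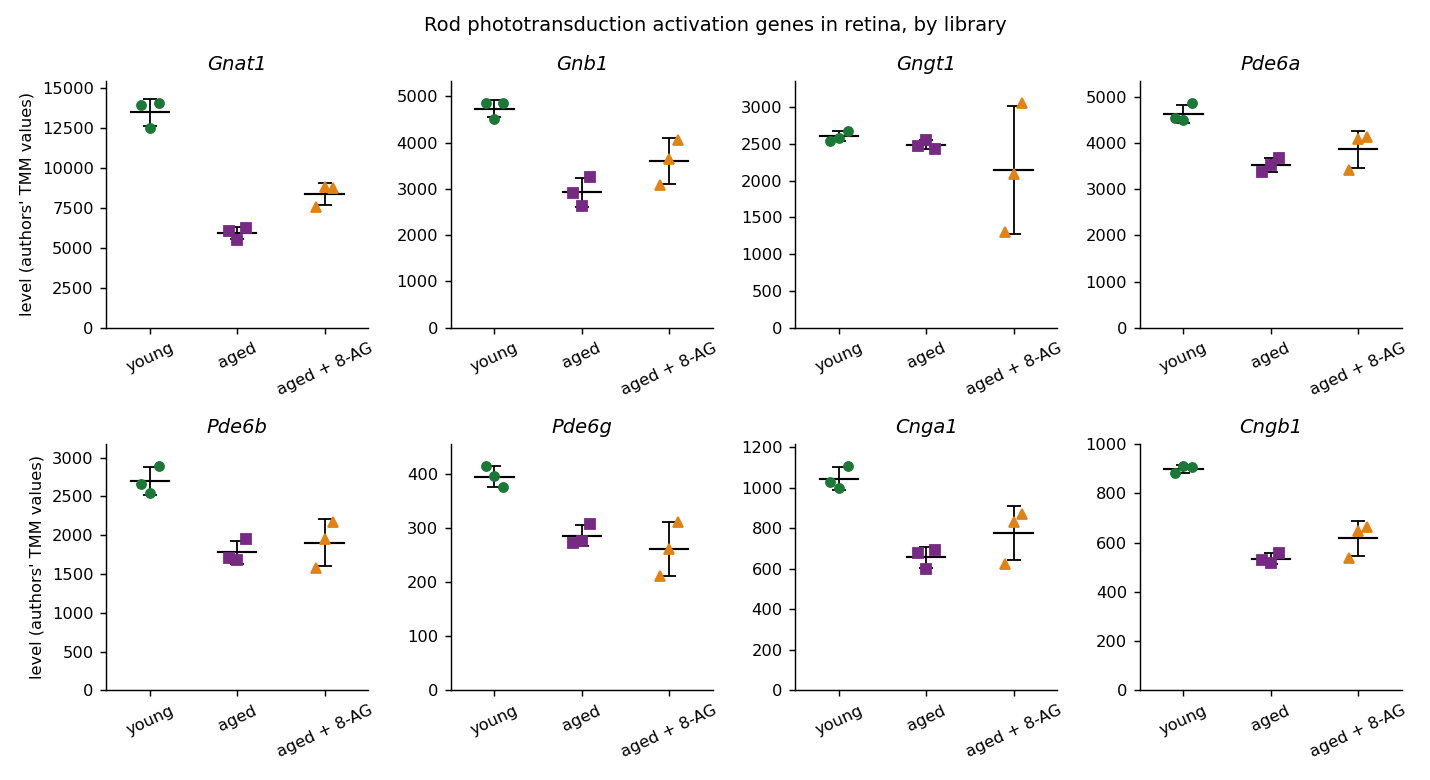
Levels of the 8 genes in the 9 retina libraries on the authors' TMM scale, 1 panel a gene with its own linear axis from 0. Points are libraries, the horizontal line is the mean of 3 libraries and the bar is ± 1 SD. All 3 aged libraries lie below all 3 young libraries in every panel but Gngt1 (17.6% of all genes tested do the same), whose treated libraries spread from 1299 to 3048.

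The transducin subunits behaved differently from one another. Gnat1, the alpha subunit, measured 13910, 12507 and 14036 in young retina and 6030, 5495 and 6252 in aged retina. All aged values lay far below the lowest young value. The fall was 1.18 on the log2 scale (log2 fold change -1.18, SE 0.07, adjusted p = 5.62e-05 by edgeR), that is a 56.0% lower level, and only 93 of the 14588 genes tested had a lower log2 fold change. RSEM gave Gnat1 non-whole counts in all 9 retina libraries, so part of its reads was shared among several genes, and the size of that part is not given in the files. Gnb1, the beta subunit, went from 4845, 4516 and 4845 in young retina to 2908, 2623 and 3245 in aged retina, again without overlap. Its log2 fold change was -0.69 (SE 0.08, adjusted p = 0.000630 by edgeR).

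Gngt1, the rod gamma subunit, was at 2542, 2584 and 2676 in young retina and at 2469, 2556 and 2434 in aged retina. The groups overlapped. Its log2 fold change was -0.06 (SE 0.06, adjusted p = 0.51 by edgeR), and ± 2 SE spanned folds of 0.886 to 1.04. When libraries were scaled to their totals only, the value was 0.054. That scaling put the median of all genes at 0.12, so Gngt1 stayed a little below the typical gene.

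All 3 subunits of phosphodiesterase 6 fell. Pde6b, the catalytic beta subunit, was at 2658, 2541 and 2891 in young and at 1710, 1683 and 1949 in aged retina. Its log2 fold change was -0.60 (SE 0.07, adjusted p = 0.000918 by edgeR). Pde6a, the catalytic alpha subunit and the smallest of the 7 falls, was at 4551, 4509 and 4861 in young and at 3378, 3531 and 3681 in aged retina (log2 fold change -0.39, SE 0.06, adjusted p = 0.00275 by edgeR). Neither gene had an aged library within the young range. Pde6g, the inhibitory subunit, measured 415, 396 and 376 in young and 273, 277 and 309 in aged retina (log2 fold change -0.47, SE 0.07, adjusted p = 0.00221 by edgeR).

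Both subunits of the cyclic GMP-gated channel fell. Cnga1, the pore-forming alpha subunit, was at 1028, 999 and 1107 in young and at 678, 599 and 694 in aged retina (log2 fold change -0.67, SE 0.07, adjusted p = 0.000413 by edgeR). Cngb1, the modulatory beta subunit, was at 882, 911 and 906 in young and at 530, 517 and 558 in aged retina. Its young libraries had the smallest spread of the 8 genes, and its log2 fold change was -0.75 (SE 0.06, adjusted p = 9.23e-05 by edgeR). All aged values of both genes lay below the young ones.

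Markers of other cells moved in the same libraries. All 8 microglia and macrophage markers rose with age, their summed level going from 38.8 to 40.2 in young retina to 116 to 196 in aged retina. Lens marker genes (the crystallins Cryaa, Crygd and Crybb2, with Bfsp1) summed to 109 to 5198 in young retina and 1.87 to 2.93 in aged retina. The part of these cells in the lower rod transcripts was not tested.

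Ratios within each library show the unequal falls without any scaling between libraries. The ratio of Gnat1 to Gngt1 counts was 5.47, 4.84 and 5.25 in young retina and 2.44, 2.15 and 2.57 in aged retina. The groups did not overlap and the log2 ratio was lower by 1.12 (difference -1.12, SD within groups 0.11, two-sided exact permutation p = 0.1, adjusted p = 0.2 over 8 such tests). With 3 libraries against 3 the smallest p this test can give is 0.1.

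Ratios among the other subunits were compared in the same way. Pde6a relative to Pde6b was 1.71, 1.77 and 1.68 in young and 1.98, 2.098 and 1.89 in aged retina, higher in all 3 aged libraries (log2 difference 0.21, exact permutation p = 0.1, adjusted p = 0.2). Cnga1 relative to Cngb1 was 1.16, 1.097 and 1.22 in young and 1.28, 1.16 and 1.24 in aged retina, and the groups overlapped (log2 difference 0.08, exact permutation p = 0.3). Gnb1 relative to the geometric mean of the other 7 genes went from 2.34, 2.24 and 2.27 to 2.14, 1.98 and 2.25, also with overlap (log2 difference -0.11, exact permutation p = 0.2).

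**Figure D2:**
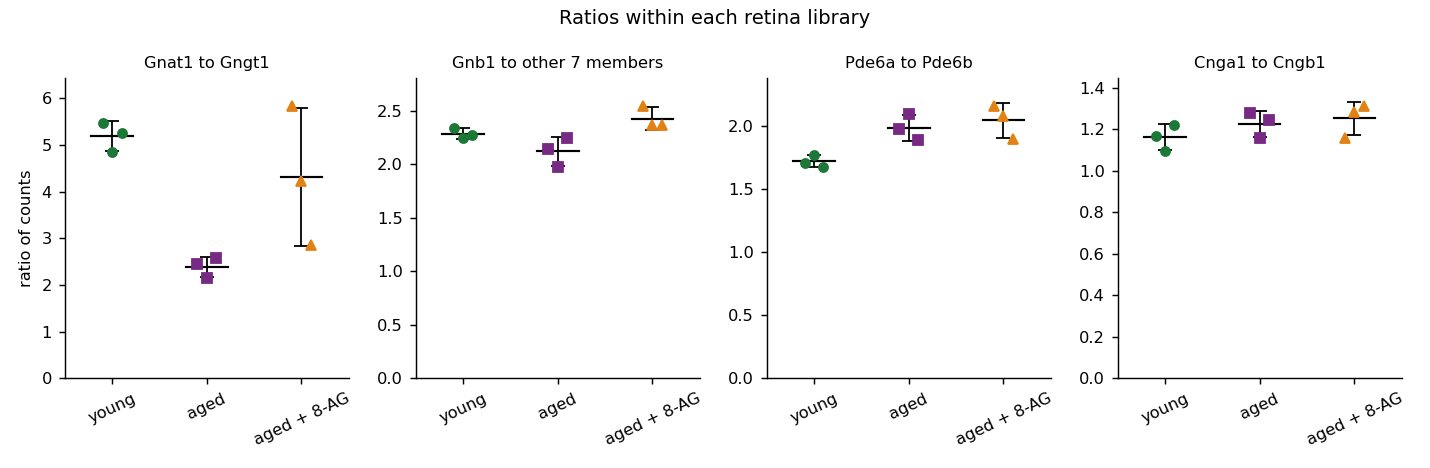
Ratios of counts within each of the 9 retina libraries, with linear axes from 0. Points are libraries, lines are means of 3 and bars are ± 1 SD. Gnat1 against Gngt1 falls from between 4.84 and 5.47 in young to between 2.15 and 2.57 in aged retina, and the treated libraries range from 2.87 to 5.84.

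8-AG-treated aged retina was compared with untreated aged retina to see whether these levels moved with treatment. None of the 8 genes passed an adjusted p under 0.05 in edgeR's test, in which 0.0205% of 14631 genes were higher. Without adjustment, Gnat1, Gnb1 and Cngb1 had P under 0.05, all with higher levels in treated retina, as had 298 (2.04%) of the 14631 genes. Leaving out a library changed this. Gnat1 was the only member with P under 0.05 without aged replicate 1, aged replicate 2 or treated replicate 2. Without aged replicate 3, 2 members had P under 0.05 and higher levels, and without treated replicate 1, 5 members did. Without treated replicate 3, 1 member had P under 0.05 and a higher level, while Gngt1 and Pde6g had P under 0.05 with lower levels. With all libraries, the other settings gave between 1 member (limma on the authors' table) and 4 members (DESeq2), all higher. After adjustment DESeq2 called 15 of 14618 genes higher (0.103%), of the 8 only Gnat1. By the study's rule of a 1.5-fold change none of the 8 was higher, beside 0.526% of all genes. The median log2 fold change of the 8 was 0.17 and that of all genes -0.0031. The retina libraries of treated rats carry a total RNA label and the other libraries a poly-A label, although the protocol describes poly-A capture for all retinae, and the treatment and this labelling cannot be told apart.

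Gnat1 was at 7580, 8812 and 8734 in treated retina, all 3 above the highest aged value of 6252 and all below the lowest young value of 12507. The log2 fold change against aged retina was 0.50 (SE 0.10, adjusted p = 0.353 by edgeR), that is a 1.41-fold higher level with ± 2 SE from 1.24 to 1.61. Over the alternatives run the adjusted p lay between 7.54e-05 with DESeq2 and 0.9997 without treated replicate 2, and it was 0.0884 with all 3 retina groups in 1 fit. It was the 1 member of 8 whose treated and aged libraries did not overlap, beside 4.58% of all genes tested with every treated library higher and 4.06% with every one lower. Against young retina Gnat1 was lower, with a log2 fold change of -0.68 (SE 0.08, adjusted p = 0.000639 by edgeR). The aged libraries serve in one of these comparisons and the young libraries in the other, while the treated libraries serve in both. The same aged libraries also gave the fall with age, so that fall and the higher treated level are not independent. No marker of other cells was called in treated against aged retina. All 6 bipolar cell markers were below 0 there (median log2 fold change -0.27). So were 7 of 8 microglia and macrophage markers (median -0.21) and 4 of 5 Mueller glia markers (median -0.036). All 8 RPE markers were above 0 (median 0.71). The bipolar markers summed to 1045 to 1432 in aged and 909 to 1185 in treated retina, and the RPE markers to 265 to 450 and 388 to 571. Their part in the Gnat1 value was not tested.

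The other transducin subunits showed no such separation. Gnb1 was at 3079, 3646 and 4065 in treated retina, of which the lowest lay within the aged range (log2 fold change 0.30, SE 0.12, adjusted p = 0.996 by edgeR). Gngt1 was at 1299, 2083 and 3048, a 2.35-fold spread that took in the whole aged range (log2 fold change -0.22, SE 0.30, adjusted p = 0.996 by edgeR). Its coefficient of variation in the treated libraries was 40.9%, beside a median of 6.27% over the 2149 genes with a mean level of at least 100, and 3 of these genes, Gngt1 included, had a ratio of treated library 1 to treated library 3 as low as its 0.426. In aged retina the Gngt1 coefficient of variation was 2.53%. Without treated replicate 1 the log2 fold change was 0.043.

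Treated library 1 was also the lowest of its group for each of the other 7 genes. Its ratio to treated library 3 was 0.868 for Gnat1, 0.826 for Pde6a, 0.808 for Cngb1, 0.757 for Gnb1, 0.724 for Pde6b, 0.714 for Cnga1 and 0.677 for Pde6g, beside a median of 0.993 over the 2149 genes. Ratios as low were held by 20.5% of these genes for Gnat1, 13.9% for Pde6a, 11.6% for Cngb1 and 6.98% for Gnb1. The share was 4.47% for Pde6b, 4.0% for Cnga1 and 2.51% for Pde6g. The lens markers of treated library 1 summed to 1591, beside 1.87 to 3.54 in the other aged and treated retina libraries. The part of this library's make-up in the lower rod values was not tested.

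For the phosphodiesterase and the channel the treated libraries overlapped the aged libraries. Pde6a was at 3409, 4080 and 4126 (log2 fold change 0.13, SE 0.09), and Pde6b at 1575, 1956 and 2175 (log2 fold change 0.09, SE 0.12). Pde6g was at 212, 262 and 313, with a mean slightly under that of aged retina (log2 fold change -0.13, SE 0.13). For these 3 genes ± 2 SE spanned folds of 0.963 to 1.25, 0.906 to 1.26 and 0.764 to 1.096. These are intervals around the estimates and not limits of detection. Cnga1 was at 623, 833 and 873 (log2 fold change 0.24, SE 0.13), and Cngb1 at 537, 649 and 665 (log2 fold change 0.20, SE 0.09). The adjusted p by edgeR was 0.996 for each of these 5 genes.

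The ratio of Gnat1 to Gngt1 was higher in treated than in aged retina. It was 5.84, 4.23 and 2.87 in the treated libraries, all above the aged values (log2 difference 0.80, SD within groups 0.38, two-sided exact permutation p = 0.1, adjusted p = 0.2 over the 8 tests). The highest ratio came from treated library 1, where Gngt1 was at its lowest, 1299. Without that library the log2 difference was 0.55. Gnb1 relative to the other 7 genes was 2.55, 2.36 and 2.37 and did not overlap the aged range (log2 difference 0.19, exact permutation p = 0.1, adjusted p = 0.2). The pairs within the phosphodiesterase and within the channel overlapped, with log2 differences of 0.04 and 0.03 (exact permutation p = 0.7 and 0.5).

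Treated retina stayed below young retina for most of the genes. In the comparison of 8-AG-treated aged with young retina, 6 of the 8 genes were lower at an adjusted p under 0.05, beside 7.1% of 14542 genes. After Gnat1 these were Pde6g (log2 fold change -0.59), Cngb1 (-0.54), Pde6b (-0.50), Cnga1 (-0.42) and Gnb1 (-0.39), with adjusted p by edgeR between 0.00267 and 0.0418. Pde6a missed the threshold (log2 fold change -0.26, SE 0.08, adjusted p = 0.0630), although all 3 treated libraries lay below the young ones, as they did for 7 of the 8 genes and 18.3% of all genes tested. Gngt1 overlapped (log2 fold change -0.28, SE 0.32, and -0.015 without treated replicate 1 or -0.61 without treated replicate 3). Leaving out 1 library changed the number lower to between 2 and 7. It was 2 without young replicate 1, without young replicate 3 or without treated replicate 2, and 3 without young replicate 2, while Gnat1 and Cngb1 were called under every alternative run.

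**Figure D3:**
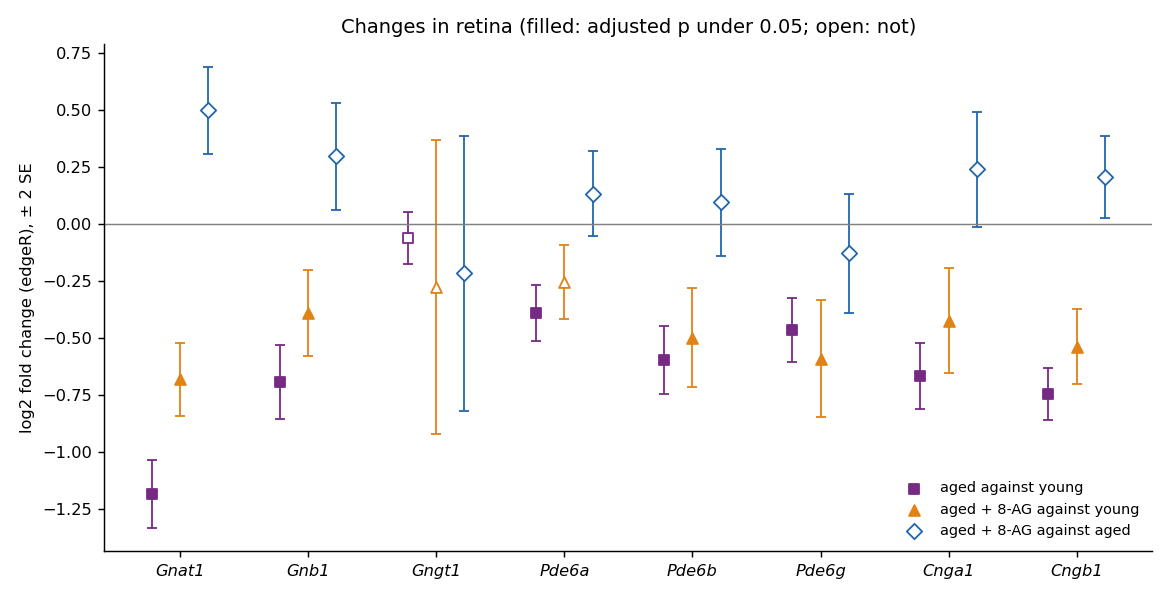
Log2 fold changes in retina by edgeR for the 8 genes, with bars of ± 2 SE, for the 3 pairs of groups. Filled symbols have an adjusted p under 0.05 and open symbols do not. Gnat1 has the lowest value for aged against young (-1.18) and the highest for treated against aged (0.50). The same aged libraries enter both values with opposite sign, so the values are not independent. The wide bars of Gngt1 belong to the comparisons that use the treated libraries.

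The rest of the rod pathway was read from lists of genes with known roles. Of 11 genes that shut off or restore the light response, 9 fell with age and 2 did not pass the test, to be read beside the 7.26% of all genes called lower, which holds for the lists that follow as well. Slc24a1, the rod exchanger that removes calcium, had the largest fall (log2 fold change -0.95, SE 0.07, adjusted p = 9.91e-05 by edgeR). Sag, the rod arrestin, was at 5318 to 6023 in young and 4884 to 5560 in aged retina (log2 fold change -0.08, SE 0.07, adjusted p = 0.48). The median log2 fold change of the list was -0.59. In treated against aged retina none of the 11 passed the test.

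Of 8 genes for the assembly and transport of phosphodiesterase and transducin, 3 fell with age, among them Aipl1, the chaperone of phosphodiesterase 6 (log2 fold change -0.43), and Unc119, which carries the lipid-modified transducin alpha subunit (-0.41). Rd3, which regulates guanylate cyclase, had the highest value of the list (log2 fold change 0.23, adjusted p = 0.062 by edgeR). Of 7 outer segment structural genes 6 fell, led by the disc rim gene Rom1 (-0.79), and 1 rose, the actin bundling gene Fscn2 (0.94). Of 4 rod transcription factors, Nrl (log2 fold change -0.83), Crx (-0.68) and Neurod1 (-0.66) fell and Nr2e3 did not pass the test (-0.30, adjusted p = 0.29 by edgeR). In treated against aged retina no gene of these 3 lists passed the test.

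The cone counterparts and the other G protein subunits moved in both directions. Of 7 cone genes 2 fell, Gnat2 (log2 fold change -0.25) and Cnga3 (-0.93, from 3.39 to 4.01 in young to 1.91 to 2.096 in aged retina), and 1 rose, Gnb3, the beta subunit that cones and ON bipolar cells use (0.93, SE 0.10, adjusted p = 0.000790 by edgeR). The median log2 fold change of these 7 genes was 0.01, and 7.29% of all genes were called higher. In a separate list of 6 cone marker genes 3 fell, none rose, 5 were below 0 and the median was -0.23. Of 9 other beta and gamma subunits tested, Gnb5 fell (-0.39), Gnb3 and Gng10 rose, and the median was 0.11. Gnb2, a widely used beta subunit like Gnb1, was at 0.14 (SE 0.10, adjusted p = 0.37 by edgeR).

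Likeness to the 8 genes across the 9 retina libraries was measured as the root mean square difference of mean-centred log2 levels from the median of the 8. Pde6b (0.041), Cnga1 (0.053), Cngb1 (0.070) and Gnb1 (0.071) lay nearest to that profile. Gnat1 (0.24) and Gngt1 (0.32) lay farthest, with 2239 and 6091 of 10081 genes nearer than they were, although all 8 help form the median. The nearest genes outside the set were Elovl4 (0.037), which makes very long chain fatty acids for photoreceptor membranes, Lgalsl (0.040), AC091229.1 (0.057), AABR07025023.1 (0.060) and Dlc1 (0.064). They were chosen on the same 9 libraries, so their own differences between the groups are not a separate result.

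In RPE/choroid the same transcripts served as a measure of retina carried in with the tissue, which lies against the rod outer segments and is not known to use the 7 rod genes. Levels here are CPM, the read count scaled to the library total. Gnat1 was at 2206, 2649 and 237 in young, at 887, 75.7 and 2288 in aged, and at 6475, 80.9 and 105 in treated RPE/choroid. Each group thus held libraries with high and with low rod transcripts, and the range within a group was far wider than any difference between groups. The highest library stood 85.6-fold above the lowest for Gnat1, 92.8-fold for Pde6b, 79.4-fold for Pde6a, 69.2-fold for Pde6g and 46.8-fold for Cnga1, beside 26.3-fold for Gnb1.

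**Figure D4:**
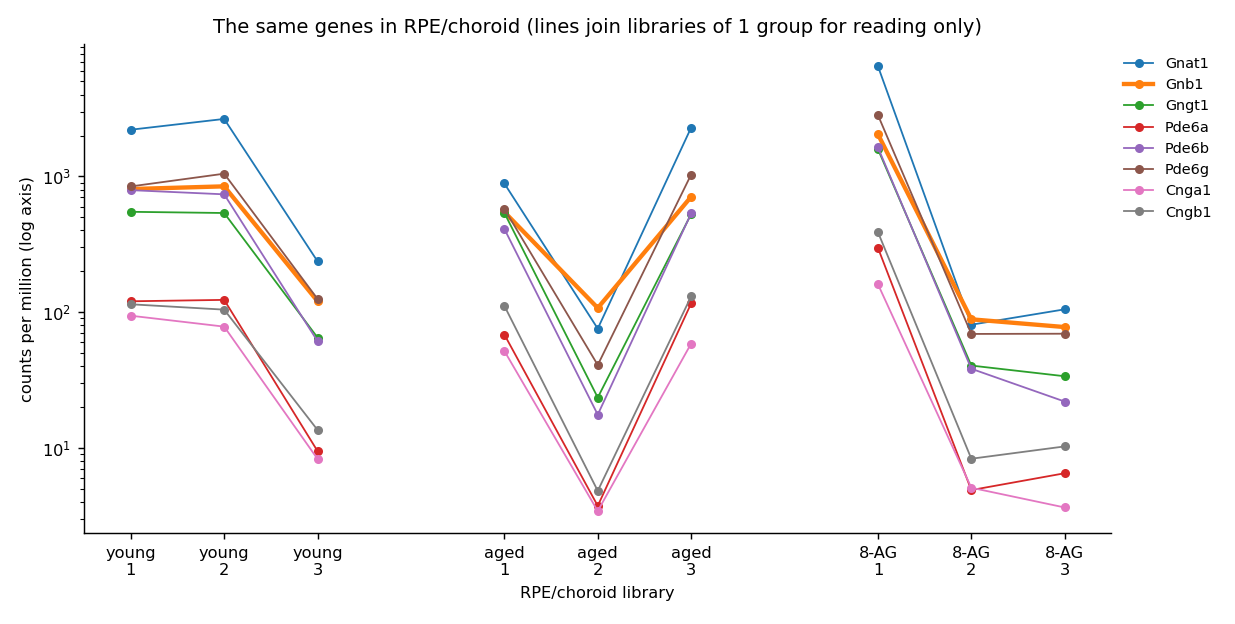
CPM of the 8 genes in the 9 RPE/choroid libraries, on a log axis. Lines join the 3 libraries of a group for reading only. All genes are high in young 1 and 2, aged 1 and 3 and treated 1, and low in the other 4 libraries, and the thick line of Gnb1 (77.7 to 2043) drops least.

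The rod-rich libraries were young 1 and 2, aged 1 and 3, and treated 1, in which the 8 genes summed to between 3190 and 15413 CPM. The other 4 libraries summed to between 277 and 640. Treated library 1 also held the fewest transcripts of the tissue itself, with RPE markers summing to 5373, beside 9818 to 17899 in the other 8 libraries, and melanocyte markers to 662, beside 6059 to 15387. It was the highest of the 9 libraries in the sums of 4 lists of retinal markers, with bipolar cell markers at 1016 (80.9 to 960 in the others), cone markers at 228 (4.15 to 148), Mueller glia markers at 3591 (919 to 3280) and ganglion cell markers at 912 (176 to 687). Aged library 3, second in bipolar markers, had the second lowest RPE and melanocyte sums.

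No member passed the test in RPE/choroid. For aged against young, edgeR called 0.0% of 16047 genes lower and none of the 8, none had an unadjusted P under 0.05, and DESeq2 called none of the 8. The log2 fold changes ran from -0.75 (Pde6b, SE 1.28) to 0.06 (Cngb1, SE 1.18). For 8-AG-treated aged against aged, edgeR called 0.0% of 16257 genes higher, and the same counts of 0 held for the 8 genes by P and by DESeq2. All 8 values were above 0, from 0.84 (Cnga1, SE 1.72) to 1.31 (Gnat1, SE 1.98). They rest on 1 library: without treated replicate 1 all 8 were below 0, at -3.49 for Gnat1 and -2.40 for Gnb1. With standard errors of this size, even a fold change of 2 was not detectable.

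Proportions among the 7 rod genes were also taken within each library. Each gene's count was divided by the geometric mean of the other rod genes in the same library, leaving Gnb1 out of the mean. Gnat1 by this ratio lay between 4.61 and 9.69 in the 9 RPE/choroid libraries, Pde6a between 0.183 and 0.280, Pde6g between 2.57 and 4.25, and Gngt1 between 1.51 and 2.58. The widest of the 7 was Pde6b, at 1.11 to 2.39, a 2.15-fold range. Some direct pairs varied more, with Gnat1 to Gngt1 between 1.65 and 4.93 and Pde6g to Pde6b between 1.065 and 3.16. Pde6g to Pde6a, between 7.01 and 14.1, did not. The lowest Gnat1 ratios, 4.61 and 4.82, came from aged library 1 and treated library 2, and the other 7 libraries lay at 6.89 and above.

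Gnb1, which many cell types use, was set against the same genes. Against the geometric mean of the 7 rod genes it ran from 2.05 to 7.99, a 3.90-fold range. Relative to Gnat1 it was 0.366, 0.319 and 0.508 in young, 0.617, 1.42 and 0.310 in aged, and 0.316, 1.096 and 0.740 in treated RPE/choroid. The 4 rod-poor libraries, young 3, aged 2 and treated 2 and 3, held values from 0.508 to 1.42, and the 5 rod-rich libraries values from 0.310 to 0.617. In the rod-poor libraries Gnb1 stood at 77.7 to 120 CPM, and the other 7 genes at 3.43 to 237 CPM.

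The proportions among the members differed between the tissues' libraries. Pde6g relative to Pde6a was between 0.0621 and 0.0913 in the 9 retina libraries and between 7.01 and 14.1 in the 9 RPE/choroid libraries. By the ratio to the other rod genes, the median of Pde6a was 11.7-fold higher and that of Cnga1 2.67-fold higher in retina than in RPE/choroid, while that of Pde6g was 23.8-fold higher in RPE/choroid. For Gnat1, Gngt1, Gnb1, Pde6b and Cngb1 the RPE/choroid median was 0.882-fold to 1.37-fold of that in retina. A gene that stands apart also enters the means used for the others, so these ratios are not independent of each other. The tissue, the library kit (poly-A capture in retina, poly-A selection with enrichment for full-length transcripts in RPE/choroid) and the counting (RSEM estimates in retina, read counts in RPE/choroid) changed together and cannot be told apart.

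**Figure D5:**
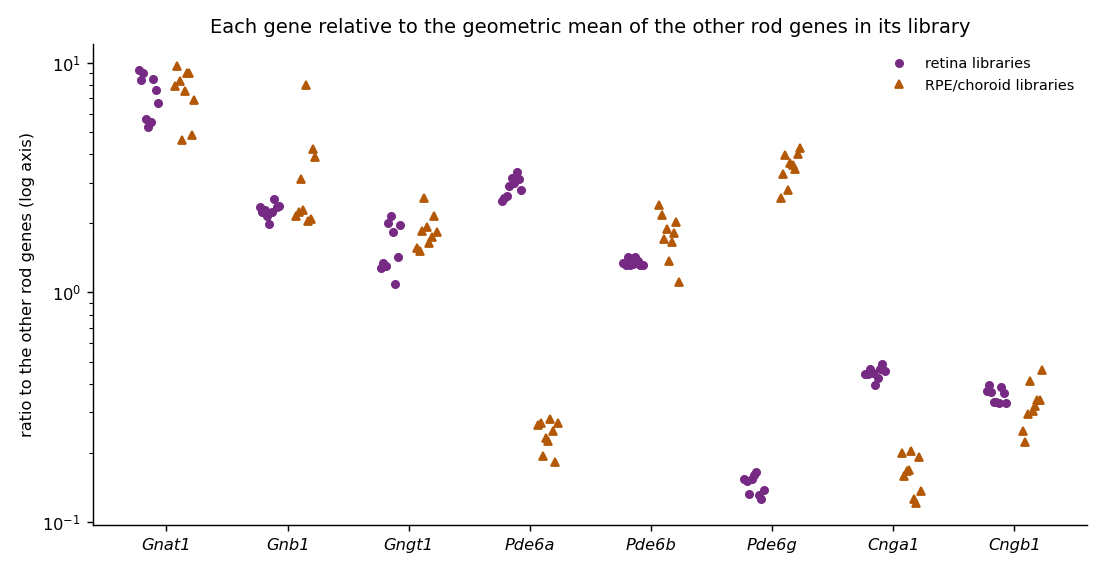
Counts of each gene relative to the geometric mean of the other rod genes in the same library (Gnb1 left out of the mean), on a log axis, for the 9 retina and the 9 RPE/choroid libraries. Within a tissue the points of a gene span at most 2.15-fold, except Gnb1 in RPE/choroid (2.05 to 7.99), while Pde6a, Cnga1 and Pde6g stand apart between the tissues, the last with the RPE/choroid libraries on top.

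By the same measure of likeness over the 9 RPE/choroid libraries, now against the median of the 7 genes other than Gnb1, the nearest genes were Cdhr1 (0.086), Guca1b (0.13), Rcvrn (0.13), Rom1 (0.14) and Aipl1 (0.14). All 5 are photoreceptor genes of the lists above, for outer segment structure, calcium sensing or phosphodiesterase assembly. Gngt1 (0.19), Pde6a (0.19), Pde6g (0.20) and Cnga1 (0.22) followed closely, Gnat1 (0.36) lay farther out, and Gnb1 (0.60) had 80 of 10184 genes nearer to the profile than itself. The 7 genes help form the median they are set against and Gnb1 does not, so part of its greater distance is built into the measure.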

How the data were processed

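RNA-seq of rat retina and RPE/choroid was taken from the files the authors deposited. The retina expected counts per gene were estimated by the authors with RSEM 1.2.15 and Bowtie2 2.1.0 on Rnor_6.0 (submitters' processing notes), were not normalized, and were rounded here (11.5% were not whole). The authors also deposited TMM-normalized retina signal, used for levels. The RPE/choroid read counts per gene were deposited raw and are given as CPM; the counting program is not given in the sources used here. Columns of the authors' own comparisons (fold changes and p-values) were read only for pairing identifiers with names. Gucy2e, Prph2 and Pecam1 were not found by name, so their lists were used without them.

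Every pair of groups, 6 libraries, was fitted separately by edgeR 4.0.16 (R 4.3.3; default expression filter, TMM, quasi-likelihood test with robust=TRUE), with Benjamini-Hochberg adjustment over all genes tested. The script was tested on simulated data. Ratios were compared with two-sided exact permutation tests in SciPy 1.17.1. Named are the 8 genes, the 5 nearest genes with a mean level of at least 10 (0.5 added before the log), and from each list the largest fall, the largest rise, the gene with the highest count, and a few others chosen after their values were seen; a further gene that the rule names is not reported here. The ratio to the other rod genes was added after the data were seen. The members and lists were chosen with earlier results of these data known. Alternatives were RLE factors, library totals, DESeq2 1.42.0, no filter, 10 counts in every library, 3 groups in 1 fit, a replicate block, robust=FALSE, limma 3.58.1 on log2(TMM + 1), unrounded counts, summed libraries that share a label number, 1 count added before ratios, and leaving out each library.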

Additional observations from a re-analysis of the deposited data

How the results depend on the processing

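The 7 falls with age in retina were called under all 16 alternatives, and leaving out a library left 7 each time. For treated against aged retina the number of the 8 genes called was 1 with DESeq2 and 0 in the main test and under the other alternatives. For treated against young retina it was 6, and between 2 and 7 when a library was left out. There Cnga1 lost its call with no filter (adjusted p = 0.0578 by edgeR) and with robust=FALSE (0.0548), Gnb1 with limma on the authors' table (0.0514) and Pde6g with a replicate block (0.0519), while Pde6a gained one with DESeq2 (0.0150), with no filter (0.0340) and without treated replicate 3 (0.0457). Replicate numbers were not taken to pair the libraries in the main test. In no comparison did every correlation of same-numbered libraries exceed 0.1 (0.039 to 0.082 in treated against aged retina, -0.27 to 0.25 over the retina comparisons, -0.615 to 0.665 in RPE/choroid). Each correlation is taken from deviations around the mean of only 3 libraries, so it cannot decide whether libraries are paired. With a replicate block 7, 0 and 5 genes were called in the 3 retina comparisons. With library totals only, Gngt1 in aged against young retina was at 0.054, and the split of all genes called moved from 1063 higher and 1059 lower to 2344 and 542. Against young, treated retina had 1511 higher and 606 lower with that scaling in place of 1131 and 1032.

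Leaving out a library in treated against aged retina gave ranges that crossed 0 for Gngt1 (-0.55 to 0.043), Pde6g (-0.27 to 0.0032) and Pde6b (-0.0071 to 0.21), all log2 fold changes. For the log2 ratios the ranges in aged against young retina were -1.18 to -1.05 for Gnat1 to Gngt1, 0.17 to 0.24 for Pde6a to Pde6b, 0.039 to 0.12 for Cnga1 to Cngb1 and -0.15 to -0.059 for Gnb1 to the others, and in treated against aged retina 0.55 (without treated replicate 1) to 1.062 (without treated replicate 3), 0.0024 to 0.098, -0.012 to 0.083 and 0.14 to 0.24. Crossing 0 was also seen in aged against young RPE/choroid for Gngt1 (-0.62 to 0.44), Gnb1 (-0.89 to 0.046), Pde6a (-1.24 to 0.089), Pde6g (-1.14 to 0.21) and Cngb1 (-0.44 to 0.61). In treated against aged RPE/choroid the ranges were -3.49 to 2.48 for Gnat1, -3.24 to 1.42 for Gngt1, -2.40 to 1.48 for Gnb1, -3.40 to 1.79 for Pde6a, -3.36 to 1.68 for Pde6b, -2.93 to 1.96 for Pde6g, -3.07 to 1.38 for Cnga1 and -3.09 to 1.54 for Cngb1. Libraries sharing a label number, when summed, gave 0.35 for Gngt1, 0.075 for Gnb1, 0.16 for Pde6a and 0.25 for Pde6g in aged against young RPE/choroid. With a replicate block Cngb1 was at -0.21 in that comparison, and in treated against aged RPE/choroid Gnat1 was at -0.19, Gngt1 at -0.10, Gnb1 at -0.40, Pde6a at -0.17 and Cnga1 at -0.20. None of these was called, and the cause was not tested.

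Counts over all genes also depended on the choices. In aged against young retina the genes called lower, 1059 in the main test, ran from 577 (without young replicate 2) to 1205 (without aged replicate 1). In treated against young retina they were 1032, and ran from 408 (without young replicate 2) to 1203 (without treated replicate 1). Treated against aged retina had 3 genes called, 18 with DESeq2, 10 without a filter and 0 with 10 counts in every library, a replicate block or robust=FALSE. DESeq2 called 34 and 41 genes in the RPE/choroid comparisons, where edgeR called 0, with 341 and 274 at an unadjusted P under 0.05. The common dispersion was 0.0147 in aged against young retina and 0.195 and 0.396 in RPE/choroid, which limits what 3 libraries a group can show there.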
